A study of Mus musculus with 10 samples.

Results

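The interferon-induced antiviral genes described here are a list of 33 mouse genes that cells switch on in response to type I interferon. Members were found by gene symbol in the annotation of the arrays, and a gene with several probe sets would have been represented by the one with the highest mean. The annotation named 32 of the 33, each with 1 probe set, among 19505 genes with a symbol, and Ifi44 was dropped because it was not among them. Of the 32, 31 lay above the 40th percentile of their array on at least 2 arrays and were tested with 13393 genes in all. Oasl1 did not pass that filter. Its log2 values lay between 5.02 and 5.66, and the 40th percentile of the arrays lay between 5.64 and 5.84.

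RNA was measured on 10 single-colour Affymetrix arrays, all taken 6 months after CD4+ T cells had been put into immunocompromised mice, and the series asks what oncogenic Vav1 does in T cells. The strain label of every sample is C57BL/10. The transferred cells had been transduced with GFP (genotype label WT + GFP) or with oncogenic Vav1 (genotype label WT + Oncogenic Vav1). Vav1 normally relays signals of the T cell receptor. The groups were GFP spleen (2 arrays), oncogenic Vav1 spleen (4 arrays), GFP lymph node (2 arrays) and oncogenic Vav1 lymph node (2 arrays). All groups share the transduction, the transfer and the immunocompromised host, and the labels used here name neither the promoter of the construct nor the defect of the host. The arrays came from 7 animals. CTL2, ONCO2 and ONCO3 gave both tissues, so arrays of different tissues are not all from separate mice, while arrays within a group are.

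Type I interferon is released by cells that sense foreign nucleic acid and binds the receptor made of Ifnar1 and Ifnar2. The kinases Jak1 and Tyk2 then activate a complex that holds Stat2 and Irf9 and binds a DNA element called the interferon-stimulated response element, built around repeats of GAAA. Interferon gamma, the product of T and natural killer cells, uses another receptor and acts mainly at a different element, and many of the genes below respond to either. In spleen and lymph node, plasmacytoid dendritic cells are known as strong sources of type I interferon, and macrophages, lymphocytes and stromal cells are all able to express the induced genes.

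Promoter sequences were searched for this element. RefSeq promoter windows of 300 bases on GRCm38.p6 (250 before the start of the gene and 50 after) were at hand for 23 of the 32 members. The core motif searched, on both strands, was GAAA, any 2 bases and GAAA again, and it lay in the window of 12 of these 23 (52.2%), against 3.99% of 27025 genes with a window. A different motif, TTCNNNGAA, the core of the element bound by Stat dimers, lay in 7 of the 23 (30.4%) and in 9.55% of all genes. The 6 windows of 80 bases below were chosen among members that hold the paired GAAA motif, with the bases of each match on either strand in capitals. They are written 5′ to 3′ on the strand of the gene. Bst2 (chr8:71537555-71537634, minus strand) and Ifit1 (chr19:34640759-34640838, plus strand) passed the test in spleen, Isg15 (chr4:156200846-156200925, minus strand) and Oas3 (chr5:120777690-120777769, minus strand) passed in either tissue, Rsad2 (chr12:26456528-26456607, minus strand) passed in lymph node, and Ifit3 (chr19:34583355-34583434, plus strand) passed no test.
Bst2: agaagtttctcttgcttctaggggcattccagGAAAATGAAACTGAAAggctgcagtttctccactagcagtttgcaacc
Ifit1: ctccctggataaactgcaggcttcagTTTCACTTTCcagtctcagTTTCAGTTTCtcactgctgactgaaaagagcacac
Isg15: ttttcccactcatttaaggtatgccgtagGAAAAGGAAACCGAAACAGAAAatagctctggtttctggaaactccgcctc
Oas3: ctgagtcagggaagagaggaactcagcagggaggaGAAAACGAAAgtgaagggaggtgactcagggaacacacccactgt
Rsad2: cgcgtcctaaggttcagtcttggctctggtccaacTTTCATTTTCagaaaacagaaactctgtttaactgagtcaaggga
Ifit3: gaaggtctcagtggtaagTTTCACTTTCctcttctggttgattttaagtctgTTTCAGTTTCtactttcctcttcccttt
Isg15 holds 3 overlapping matches and Bst2 2, while Ifit3, with 2 separate matches, had values that overlapped between the constructs in both tissues. Of the 12 tested members with the paired GAAA motif, 6 rose in spleen and 5 in lymph node. Among the 10 tested members whose window lacks it, 3 rose in spleen and 2 in lymph node. Irf7 and Oasl2, with spleen changes of 1.62 and 1.38, are among these 10. The median log2 change in spleen was 0.53 with the motif and 0.45 without it. For TTCNNNGAA the split ran the other way, with 2 of 7 tested members that hold it and 7 of 15 that lack it rising in spleen, and medians of 0.40 and 0.66. Neither split was tested, and of all genes tested 17.1% rose in spleen and 7.87% in lymph node.

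Every array carried RNA of many cell types. Although CD4+ T cells is the cell type on the labels, log2 values of the B cell receptor gene Cd79a ran from 10.02 to 11.92 and those of the myeloid lysozyme gene Lyz2 from 11.32 to 12.82. With oncogenic Vav1, each of the 10 neutrophil markers and the 9 measured proliferation markers rose in both tissues, and 8 of 9 B cell markers fell in spleen. The 2 oncogenic Vav1 lymph node arrays stood apart from each other. The mean over 7 erythroid markers was 8.96 in replicate 1 (ONCO2) and 11.08 in replicate 2 (ONCO3), that over 10 T cell markers 8.94 and 7.91, and that over 10 monocyte and macrophage markers 9.86 and 9.21. GFP spleen replicate 1 (CTL2) and 2 (CTL4) differed in the erythroid mean too, at 7.55 and 8.77. The median of 5222 intronic negative control probe sets was 5.87 and 5.69 in the GFP spleen and 5.43 to 5.55 in the oncogenic Vav1 spleen.

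In the spleen, oncogenic Vav1 arrays carried more of many antiviral transcripts. The log2 change (oncogenic Vav1 minus GFP) was largest for Irf7, the transcription factor that amplifies interferon production (1.62), for the membrane tether Bst2 (1.5), and for Oasl2 and the ubiquitin-like Isg15 (both 1.38). By limma, 13 of the 31 tested members rose (41.9%) and none fell at a Benjamini-Hochberg adjusted p under 0.05, where 17.1% of all 13393 genes rose and 9.77% fell. At an unadjusted p under 0.05, 17 members passed. With quantile normalization of the arrays the split was 10 up and 2 down. The median change was 0.45, against 0.002 over all genes. In 20 members each of the 4 oncogenic Vav1 arrays lay above both GFP arrays, and in 1 (Mx2) below, while 30.3% of all genes lay apart upwards and 25.2% downwards. RNA from a mixture of cells cannot tell fewer cells of a type from less RNA per cell.

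The spleen count depended on single arrays. Without GFP spleen replicate 1, the array with the lower value in 28 of the 31 members, 3 passed (Irf7, Bst2 and Ifih1). The count was 10 without GFP spleen replicate 2, 7 without oncogenic Vav1 spleen replicate 1, 8 without replicate 2 and 20 (19 up, 1 down) without either oncogenic Vav1 lymph node array. With the negative control median as a covariate no member passed (12 at an unadjusted p under 0.05, median change 0.22), and 916 of all genes did. The part of the negative control level in the result was not tested, since that level does not overlap between the constructs in spleen.

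In the lymph node, the antiviral radical enzyme Rsad2 rose by 3.32 on the log2 scale, Isg15 by 2.37, the oligoadenylate synthetase Oas3 by 1.20 and Oasl2 by 1.04. Isg20 changed by 1.83 without passing, and Irf7 (0.33) and Bst2 (0.20) did not pass. By limma, 9 members rose (29.0%) and none fell, with 15 at an unadjusted p under 0.05, where 7.87% of all genes rose and 10.8% fell. The median change was 0.33, against -0.015 over all genes. Both oncogenic Vav1 arrays lay above both GFP arrays in 17 members and below them in 6, and 24.2% and 28.8% of all genes did so. Ifih1, Oas3, Oasl2 and Isg15 passed in either tissue, 9 members in spleen only and 5 in lymph node only, which is not a test of the difference between the tissues.

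With 2 arrays against 2, single arrays weigh more here. Leaving out GFP lymph node replicate 1 left 1 member past the threshold in lymph node, and leaving out replicate 2 left 2. It became 5 without oncogenic Vav1 spleen replicate 1, 14 without oncogenic Vav1 lymph node replicate 1 (8 up, 6 down) and 14 without replicate 2 (all up). It was 2 with array weights, 5 with the replicate number as a block and 0 when the lymph node arrays were fitted alone (11 at an unadjusted p under 0.05).

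Over both tissues, in a model with tissue as a term and the animal as a random block, 20 members rose (64.5%) and 1, Ddx58, fell, where 17.4% of all genes rose and 14.3% fell. With each array centred on its median, 21 rose and none fell. The estimated correlation between arrays of an animal was negative (-0.354), so the block made no allowance for shared animals. Without the block, 16 rose and none fell. The median change was 0.46, and over all genes -0.027. Dhx58, Eif2ak2, Ifih1, Isg15 and Oasl2 kept their call under each of the alternatives in normalization, filter, model and left-out arrays that were run, leaving aside the minimum fold. Leaving out GFP spleen replicate 1 left 7 members past the threshold, leaving out GFP lymph node replicate 2 left 12, and a 1.5-fold minimum left 10. In 10 members (32.3%), Ifih1, Dhx58, Ifit1, Eif2ak2, Oas1a, Oas3, Oasl2, Isg15, Herc6 and Cmpk2, all 6 oncogenic Vav1 arrays lay above all 4 GFP arrays, and for Oas3 this was built into its passing the filter. Of all genes, 9.68% lay apart that way and 6.15% the other way, which no member did.

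**Figure D1:**
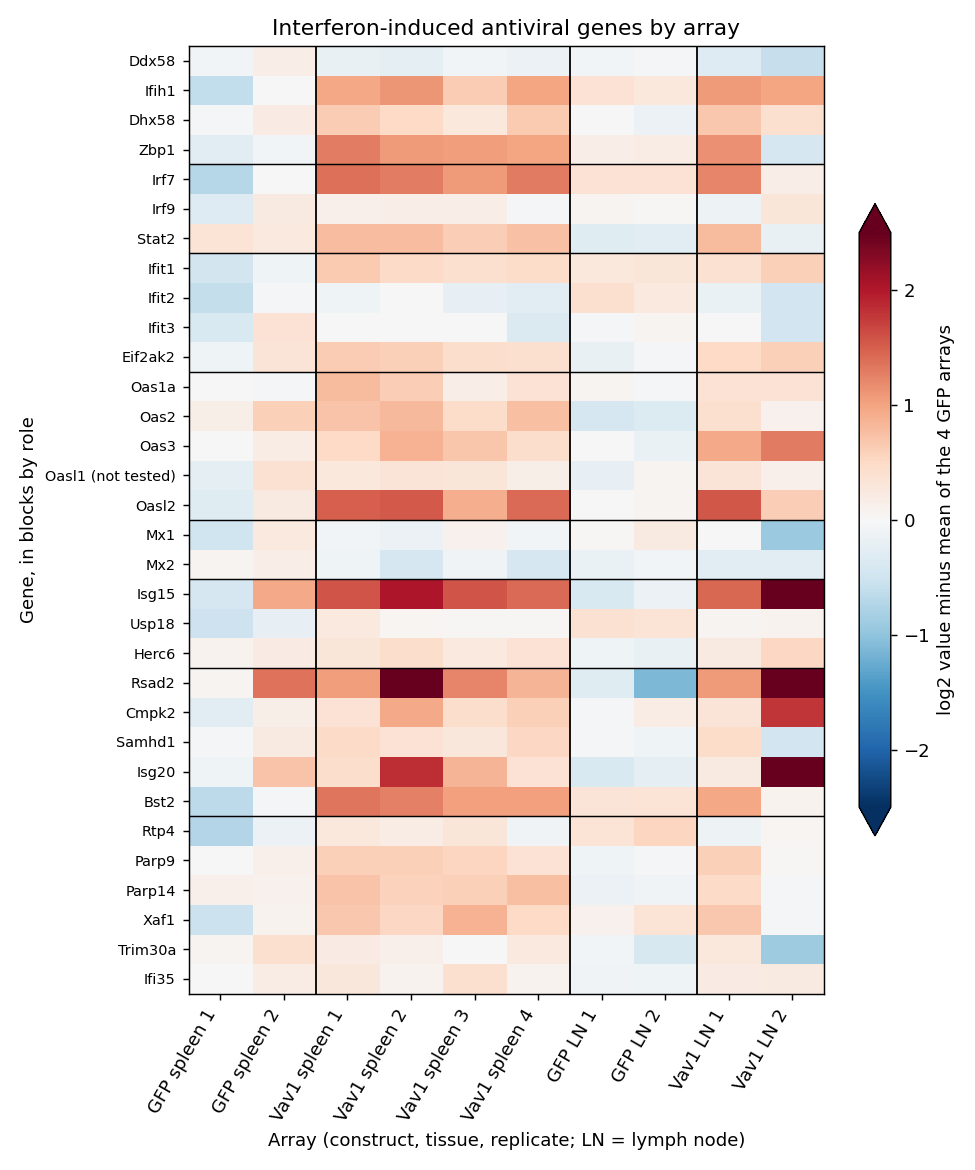
Log2 value of each of the 32 members on each array minus its mean over the 4 GFP arrays, in blocks by role, with red above and blue below that mean. Irf7, Bst2 and Oasl2 are red on the 4 oncogenic Vav1 spleen arrays, and Rsad2, Isg15 and Isg20 are darkest on oncogenic Vav1 lymph node replicate 2 (log2 values 11.52, 9.03 and 11.28), where the colour scale ends below their differences.

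**Figure D2:**
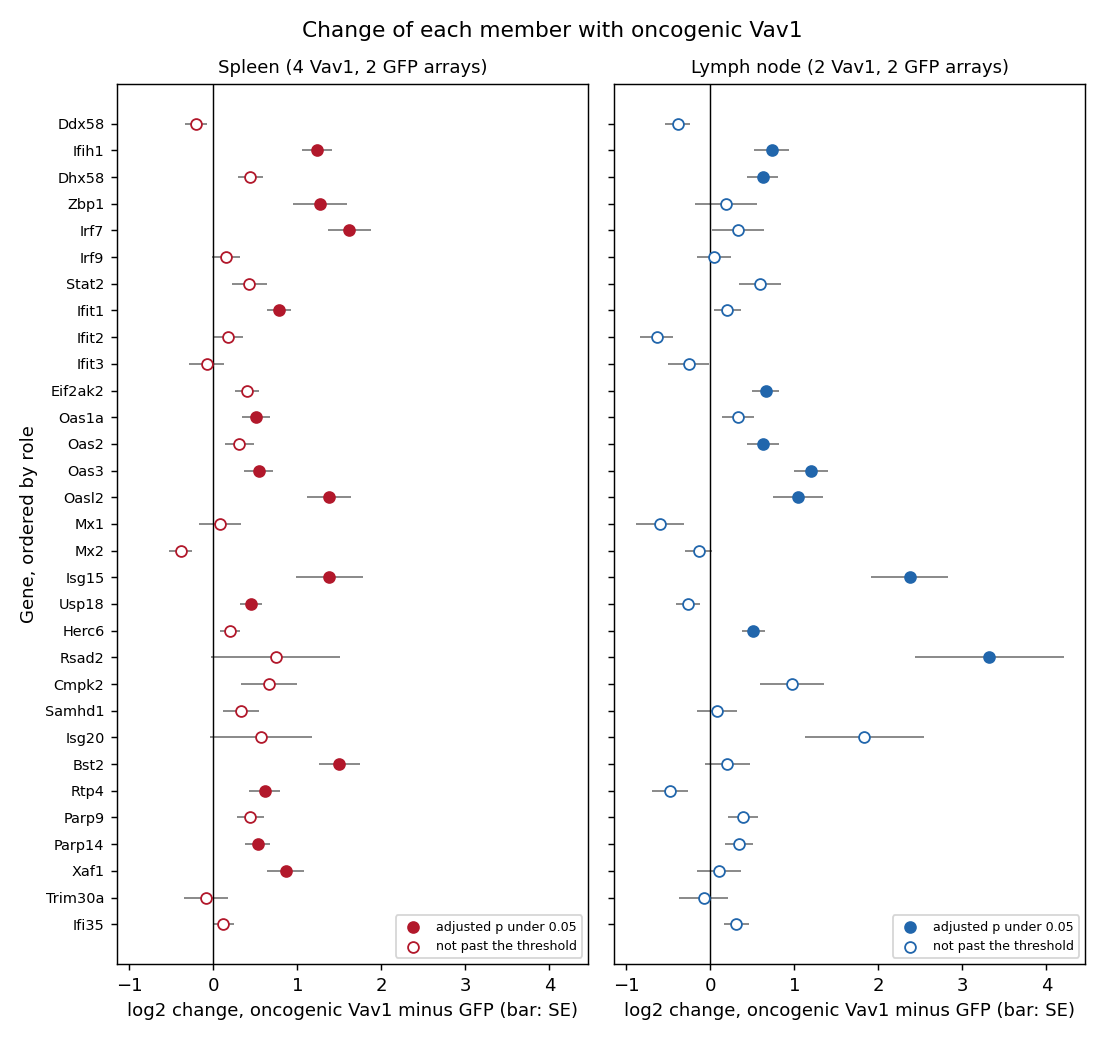
Log2 change of each of the 31 tested members, oncogenic Vav1 minus GFP, with its standard error (SE) as a bar, for spleen on the left and lymph node on the right. Filled points passed an adjusted p of 0.05 by limma, 13 in spleen and 9 in lymph node.

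Among the sensors of viral nucleic acid, Ifih1 (MDA5, which binds long double-stranded RNA) was the only one to pass in both spleen and lymph node. Ifih1 stood at 7.53 and 8.15 in the GFP spleen, at 9.11, 9.25, 8.79 and 9.13 in the oncogenic Vav1 spleen, at 8.5 and 8.41 in the GFP lymph node and at 9.22 and 9.13 in the oncogenic Vav1 lymph node. The groups did not overlap in either tissue. Its log2 change was 1.23 (SE 0.18, adjusted p = 0.0013, 2.35-fold) in spleen and 0.73 (SE 0.21, adjusted p = 0.034, 1.65-fold) in lymph node. The lymph node call did not pass without GFP lymph node replicate 1 or 2 or oncogenic Vav1 spleen replicate 1 or 4, with adjusted p from 0.055 to 0.17. Ddx58 (RIG-I, the sensor of RNA with a 5′ triphosphate) went the other way, at 8.07 and 8.32 against 7.97, 7.90, 8.07 and 8.00 in spleen and at 8.08 and 8.12 against 7.83 and 7.58 in lymph node. The fall passed only over both tissues (-0.28, SE 0.08, adjusted p = 0.028), and not without GFP spleen replicate 2, oncogenic Vav1 spleen replicate 2 or either GFP lymph node array (adjusted p from 0.051 to 0.11).

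Dhx58 (LGP2, a regulator of both other sensors) was 7.03 and 7.29 in the GFP spleen, 7.35 to 7.74 in the oncogenic Vav1 spleen, 7.07 and 6.94 in the GFP lymph node and 7.75 and 7.49 in the oncogenic Vav1 lymph node. It rose by 0.62 (SE 0.18, adjusted p = 0.035) in lymph node, missed the threshold in spleen (0.44, SE 0.15, adjusted p = 0.056), and rose by 0.52 (SE 0.11, adjusted p = 0.005) over both. The lymph node call was lost in 5 of the 10 fits that each left out 1 array (oncogenic Vav1 spleen replicates 1 and 2, both GFP lymph node arrays and oncogenic Vav1 lymph node replicate 1, adjusted p from 0.052 to 0.19). Zbp1, a sensor of Z-form nucleic acid that can start inflammatory cell death, passed in spleen and not in lymph node. It was 7.32 and 7.52 in the GFP spleen and 8.88, 8.66, 8.63 and 8.58 in the oncogenic Vav1 spleen, a change of 1.27 (SE 0.32, adjusted p = 0.016). In the lymph node, 7.76 and 7.77 with GFP stood between 8.73 and 7.18 with oncogenic Vav1 (change 0.19, adjusted p = 0.77), and the difference between the tissues did not pass (-1.08, SE 0.51, adjusted p = 0.22). Leaving out GFP spleen replicate 1 gave a spleen change of 1.17 (adjusted p = 0.13), and leaving out replicate 2 gave 1.37 (adjusted p = 0.07), neither past the threshold.

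Of the 3 transcription factors, Irf7 alone passed in a single tissue. Irf7 lay at 8.07 and 8.78 in the GFP spleen and at 10.17, 10.06, 9.86 and 10.08 in the oncogenic Vav1 spleen, so the oncogenic Vav1 arrays kept more than 1 log2 unit above both GFP arrays. The change was 1.62 (SE 0.26, adjusted p = 0.0023, 3.08-fold). The lymph node arrays gave 9.15 and 9.15 with GFP and 10.01 and 8.96 with oncogenic Vav1, and these overlapped (0.33, SE 0.31, adjusted p = 0.51). Stat2 and Irf9 are both parts of the complex that interferon activates. Stat2 was 9.12 and 9.01 against 9.39 to 9.55 in spleen, and 8.46 and 8.49 against 9.56 and 8.58 in lymph node. It passed over both tissues (0.49, SE 0.15, adjusted p = 0.033), a call lost in 7 of the 10 fits without 1 array (without any array but oncogenic Vav1 spleen replicate 3 and the oncogenic Vav1 lymph node arrays, adjusted p from 0.052 to 0.1). Irf9 ran from 8.10 to 8.73 over the 10 arrays, and its groups overlapped in both tissues (0.15 in spleen, adjusted p = 0.52, and 0.04 in lymph node, adjusted p = 0.93).

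The Ifit proteins bind foreign RNA ends and block translation, and their transcripts did not move as a block. Ifit1 was 6.66 and 7.00 in the GFP spleen and 7.77, 7.59, 7.52 and 7.57 in the oncogenic Vav1 spleen, with no overlap (0.78, SE 0.14, adjusted p = 0.0035, 1.72-fold). Without GFP spleen replicate 1 the change was 0.61 (adjusted p = 0.054). In lymph node it was 7.38 and 7.42 against 7.5 and 7.71, a small gap that did not pass (0.20, adjusted p = 0.43). Ifit2 and Ifit3, neighbouring genes, did not pass in any comparison. Ifit2 lay at 6.33 and 6.90 against 6.64 to 6.92 in spleen and at 7.33 and 7.17 against 6.76 and 6.46 in lymph node (change -0.64, SE 0.20, adjusted p = 0.054). Ifit3 ran from 8.44 to 9.28, and its highest value belonged to GFP spleen replicate 2. Eif2ak2 encodes PKR, the kinase that stops translation on sensing viral RNA. It was 8.77 and 9.20 in the GFP spleen, 9.28 to 9.50 in the oncogenic Vav1 spleen, 8.69 and 8.83 in the GFP lymph node and 9.38 and 9.46 in the oncogenic Vav1 lymph node. It rose by 0.66 (SE 0.16, adjusted p = 0.016) in lymph node and by 0.53 (SE 0.10, adjusted p = 0.0027) over both tissues, with 0.40 (SE 0.14, adjusted p = 0.056) in spleen. The lymph node value missed the threshold when GFP lymph node replicate 1 was left out (0.59, adjusted p = 0.13), and likewise for replicate 2 (0.74, adjusted p = 0.067).

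The oligoadenylate synthetases make the messenger that activates the RNA-cutting enzyme RNase L, and the 4 tested members of the family rose over both tissues. Without GFP spleen replicate 1, Oas1a (0.40, adjusted p = 0.1) and Oas2 (0.38, adjusted p = 0.13) did not pass there, nor without GFP lymph node replicate 2 (0.42, adjusted p = 0.068, and 0.43, adjusted p = 0.077), and Oas1a was also lost without GFP spleen replicate 2 (0.40, adjusted p = 0.05). Of these, Oasl2 changed most over both tissues: 7.74 and 8.26 in the GFP spleen, 9.53, 9.58, 8.95 and 9.46 in the oncogenic Vav1 spleen, 8.06 and 8.12 in the GFP lymph node and 9.59 and 8.66 in the oncogenic Vav1 lymph node. All 6 oncogenic Vav1 arrays lay above the 4 GFP arrays. The change was 1.38 (SE 0.26, adjusted p = 0.0046, 2.60-fold) in spleen, and with GFP spleen replicate 1 left out it was 1.12 (adjusted p = 0.073). In lymph node it was 1.04 (SE 0.30, adjusted p = 0.038), lost in 6 of the 10 fits without 1 array (oncogenic Vav1 spleen replicates 1, 2 and 4, both GFP lymph node arrays and oncogenic Vav1 lymph node replicate 1, adjusted p from 0.052 to 0.17).

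Oas3 was low on the GFP arrays, at 5.40 and 5.60 in spleen and 5.41 and 5.24 in lymph node, all under the 40th percentile. It reached 5.91, 6.29, 6.11 and 5.85 in the oncogenic Vav1 spleen and 6.35 and 6.71 in the oncogenic Vav1 lymph node. It entered the test through the oncogenic Vav1 arrays alone, so a difference was built into its entry, and the size of its change depends on the background level. Its lymph node change was 1.20 (SE 0.20, adjusted p = 0.0022), and with a filter at the 60th percentile it was not tested. Its spleen change of 0.54 (SE 0.17, adjusted p = 0.042) was lost in 7 of the 10 fits without 1 array (all but the ones without oncogenic Vav1 spleen replicate 4 or an oncogenic Vav1 lymph node array, adjusted p from 0.059 to 0.24).

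Oas1a stood at 6.56 and 6.54 against 7.36, 7.19, 6.75 and 6.93 in spleen (0.51, SE 0.17, adjusted p = 0.046) and at 6.65 and 6.55 against 6.94 and 6.93 in lymph node (0.33, adjusted p = 0.28). Its spleen call was lost in 7 of the 10 fits, all but those without oncogenic Vav1 spleen replicate 3 or an oncogenic Vav1 lymph node array (adjusted p from 0.057 to 0.18). Oas2, the neighbour of Oas3, lay at 7.16 and 7.61 against 7.46 to 7.82 in spleen, where the groups overlapped, and at 6.59 and 6.67 against 7.40 and 7.12 in lymph node (0.63, SE 0.19, adjusted p = 0.045). That call was lost in 6 of the 10 fits (the same arrays as for Oasl2, adjusted p from 0.062 to 0.21).

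The transcripts of the Mx family GTPases Mx1 and Mx2 did not rise. Mx1 was 6.66 and 7.39 in the GFP spleen, 7.01 to 7.26 in the oncogenic Vav1 spleen, 7.18 and 7.38 in the GFP lymph node and 7.14 and 6.23 in the oncogenic Vav1 lymph node. Mx2 was 7.71 and 7.81 in the GFP spleen, and its 4 oncogenic Vav1 spleen values of 7.53, 7.21, 7.55 and 7.22 all lay below (change -0.39, SE 0.14, adjusted p = 0.062). Neither passed in any comparison, with lymph node changes of -0.60 (SE 0.29, adjusted p = 0.2) and -0.14 (SE 0.16, adjusted p = 0.6).

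Isg15 is a ubiquitin-like protein that is attached to other proteins during infection, and it was among the members with the largest changes in both tissues. Isg15 stood at 5.85 and 7.21 in the GFP spleen, 7.83, 8.29, 7.83 and 7.68 in the oncogenic Vav1 spleen, 5.89 and 6.11 in the GFP lymph node and 7.70 and 9.03 in the oncogenic Vav1 lymph node. All 6 oncogenic Vav1 values lay above the 4 GFP values, although the GFP spleen pair itself spans 1.36. The change was 1.38 (SE 0.40, adjusted p = 0.029, 2.60-fold) in spleen, 2.37 (SE 0.46, adjusted p = 0.0056, 5.17-fold) in lymph node and 1.90 (SE 0.29, adjusted p = 0.00078) over both. The spleen change was 0.70 with GFP spleen replicate 1 left out (adjusted p = 0.31). It was 1.40 with oncogenic Vav1 spleen replicate 1 left out (adjusted p = 0.06) and 1.25 with replicate 2 left out (adjusted p = 0.07). The lymph node change with GFP lymph node replicate 1 left out was 2.26 (adjusted p = 0.053).

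Herc6, the ligase that attaches Isg15 in mice, moved little in spleen (9.07 and 9.20 against 9.24 to 9.43, change 0.20, adjusted p = 0.23) and rose in lymph node (8.89 and 8.80 against 9.22 and 9.50, change 0.51, SE 0.14, adjusted p = 0.026). Without GFP lymph node replicate 1 or 2 or oncogenic Vav1 lymph node replicate 2 it did not pass (adjusted p from 0.072 to 0.16). Usp18, which removes Isg15 and restrains the interferon receptor, rose in spleen and not in lymph node. It was 7.94 and 8.26 in the GFP spleen, 8.70, 8.52, 8.5 and 8.49 in the oncogenic Vav1 spleen, 8.84 and 8.81 in the GFP lymph node and 8.53 and 8.56 in the oncogenic Vav1 lymph node. The groups did not overlap in either tissue and lay in opposite orders. The spleen change was 0.45 (SE 0.13, adjusted p = 0.024), lost without GFP spleen replicate 1 or oncogenic Vav1 spleen replicates 1 or 2 (adjusted p from 0.053 to 0.23). The lymph node change was -0.27 (SE 0.14, adjusted p = 0.23), and the test of the difference between the tissues gave -0.72 (SE 0.20, adjusted p = 0.05).

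Rsad2 (viperin, which makes a chain-terminating nucleotide), its neighbour Cmpk2 (a nucleotide kinase of mitochondria) and the RNA-degrading Isg20 shared a pattern of highs. Rsad2 was 7.43 and 8.71 in the GFP spleen, 8.40, 10.07, 8.59 and 8.20 in the oncogenic Vav1 spleen, 7.06 and 6.24 in the GFP lymph node and 8.43 and 11.52 in the oncogenic Vav1 lymph node. The highest value came from the lymph node of ONCO3 and the second from the spleen of ONCO2. The lymph node change was 3.32 (SE 0.89, adjusted p = 0.026, 10.0-fold), and without oncogenic Vav1 lymph node replicate 2 it was 1.78 (adjusted p = 0.062). Without GFP lymph node replicate 1 it was 3.73 (adjusted p = 0.085) and without replicate 2 it was 2.91 (adjusted p = 0.17). In spleen the groups overlapped (0.74, SE 0.77, adjusted p = 0.49).

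Isg20 stood at 8.37 and 9.19 in the GFP spleen, 8.91, 10.32, 9.33 and 8.84 in the oncogenic Vav1 spleen, 8.10 and 8.23 in the GFP lymph node and 8.70 and 11.28 in the oncogenic Vav1 lymph node. The same 2 arrays were highest, and the lymph node change did not pass (1.83, SE 0.71, adjusted p = 0.1). Cmpk2 was 6.86 and 7.29 against 7.51, 8.09, 7.59 and 7.74 in spleen, and 7.11 and 7.34 against 7.47 and 8.93 in lymph node. It passed over both tissues alone (0.82, SE 0.21, adjusted p = 0.014), though not without GFP spleen replicate 1 (0.76, adjusted p = 0.095) or GFP lymph node replicate 2 (0.82, adjusted p = 0.059).

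Isg15, Herc6, Rsad2, Cmpk2 and Isg20, 5 of the 31 tested members (16.1%), were highest in the lymph node of ONCO3 and second highest in the spleen of ONCO2, an order held by 8.67% of all genes. Erythroid markers ran the same way. Rhag, a channel of the red cell membrane, was 5.41 and 7.63 in the GFP spleen, 8.46, 10.32, 8.54 and 8.29 in the oncogenic Vav1 spleen, 4.22 and 4.47 in the GFP lymph node and 8.40 and 11.54 in the oncogenic Vav1 lymph node. The mean over the 7 erythroid markers on the array was 7.55 and 8.77 in the GFP spleen, 8.99, 10.24, 9.18 and 8.88 in the oncogenic Vav1 spleen, 6.45 and 6.57 in the GFP lymph node and 8.96 and 11.08 in the oncogenic Vav1 lymph node. By limma all 7 rose in lymph node, where 7.87% of all genes did. In spleen all 7 changes were positive (median 1.03) but none passed, where 17.1% of all genes rose. The same 2 arrays held the highest proliferation means (10.00 and 9.58). Ube2l6, the enzyme that hands Isg15 to its ligase, showed the order too, at 11.37 and 11.05 on those arrays. Ube2l6 was chosen after its values were seen. The part of the erythroid and dividing cells in these members' values was not tested.

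**Figure D3:**
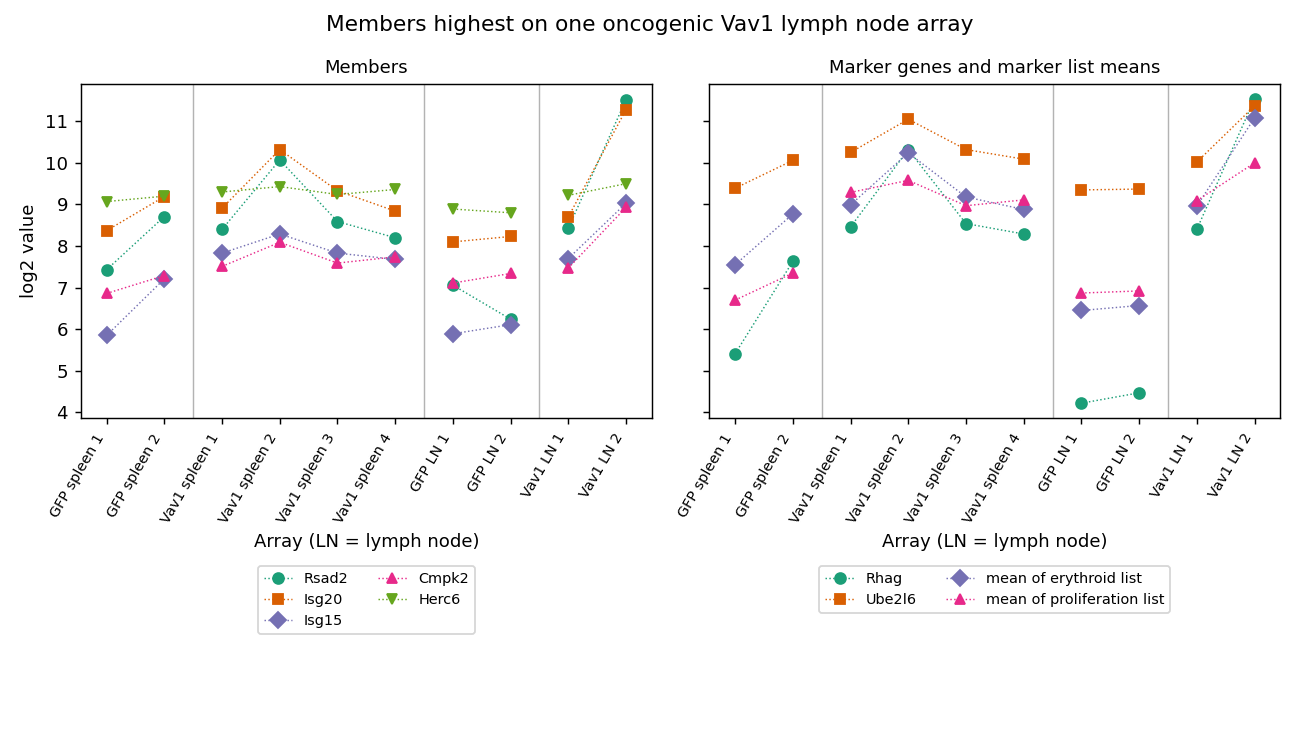
Log2 values by array of the 5 members highest in the lymph node of ONCO3 and second highest in the spleen of ONCO2 (left) and of the erythroid gene Rhag, Ube2l6 and the means of the erythroid and proliferation marker lists (right), with dotted lines joining arrays of a group only to guide the eye. Rsad2 and Isg20 reach 11.52 and 11.28 on oncogenic Vav1 lymph node replicate 2, where the erythroid mean is 11.08.

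Bst2, Samhd1 and several others did the opposite on that array. Bst2 (tetherin, which holds budding virus at the cell surface) lay at 8.52 and 9.14 in the GFP spleen, 10.50, 10.43, 10.19 and 10.19 in the oncogenic Vav1 spleen, 9.49 and 9.51 in the GFP lymph node and 10.13 and 9.26 in the oncogenic Vav1 lymph node. The spleen groups did not overlap, while the oncogenic Vav1 lymph node pair lay on both sides of the GFP pair. The change was 1.5 (SE 0.24, adjusted p = 0.0019, 2.83-fold) in spleen and 0.20 (SE 0.27, adjusted p = 0.68) in lymph node. Samhd1, which depletes the building blocks of DNA, was 11.20 and 11.47 against 11.53 to 11.77 in spleen and 11.20 and 11.15 against 11.72 and 10.78 in lymph node, and passed no test.

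Between the oncogenic Vav1 lymph nodes, replicate 2 was higher than replicate 1 in 12 members and lower in 19, from -1.55 for Zbp1 to 3.09 for Rsad2 (median -0.25, and -0.07 over all genes). The members lower in replicate 2 by the most, Zbp1, Trim30a, Irf7, Stat2, Samhd1 and Oasl2, lost 0.93 to 1.55. In replicate 2 the monocyte and macrophage mean (9.21 against 9.86) and T cell mean (7.91 against 8.94) were lower as well. So was the mean of 9 plasmacytoid dendritic cell markers (7.61 against 8.55). Also lower were the stroma (7.07 against 7.83), neutrophil (8.67 against 9.16) and B cell means (9.35 against 9.83). The plasma cell (8.45 against 8.70) and natural killer cell means (6.33 against 6.47) were lower by less. The erythroid (11.08 against 8.96) and proliferation means (10.00 against 9.09) were higher. In spleen the monocyte and macrophage mean was 8.33 and 8.39 with GFP and 9.83 to 9.88 with oncogenic Vav1. There 7 of its 10 markers rose, where 17.1% of all genes did. Lyz2, the most abundant of them, was 12.25 on both GFP spleen arrays, 12.48 to 12.79 in the oncogenic Vav1 spleen, 12.19 and 12.20 in the GFP lymph node and 12.82 and 11.32 in the oncogenic Vav1 lymph node. The neutrophil, proliferation, plasma cell, T cell, stroma, natural killer cell and erythroid means were also above both GFP spleen arrays on each oncogenic Vav1 spleen array. The B cell and plasmacytoid dendritic cell means were below. Irf7, Bst2, Oasl2 and Zbp1 rose in spleen beside all of these. The part of cell composition in these members was not tested.

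**Figure D4:**
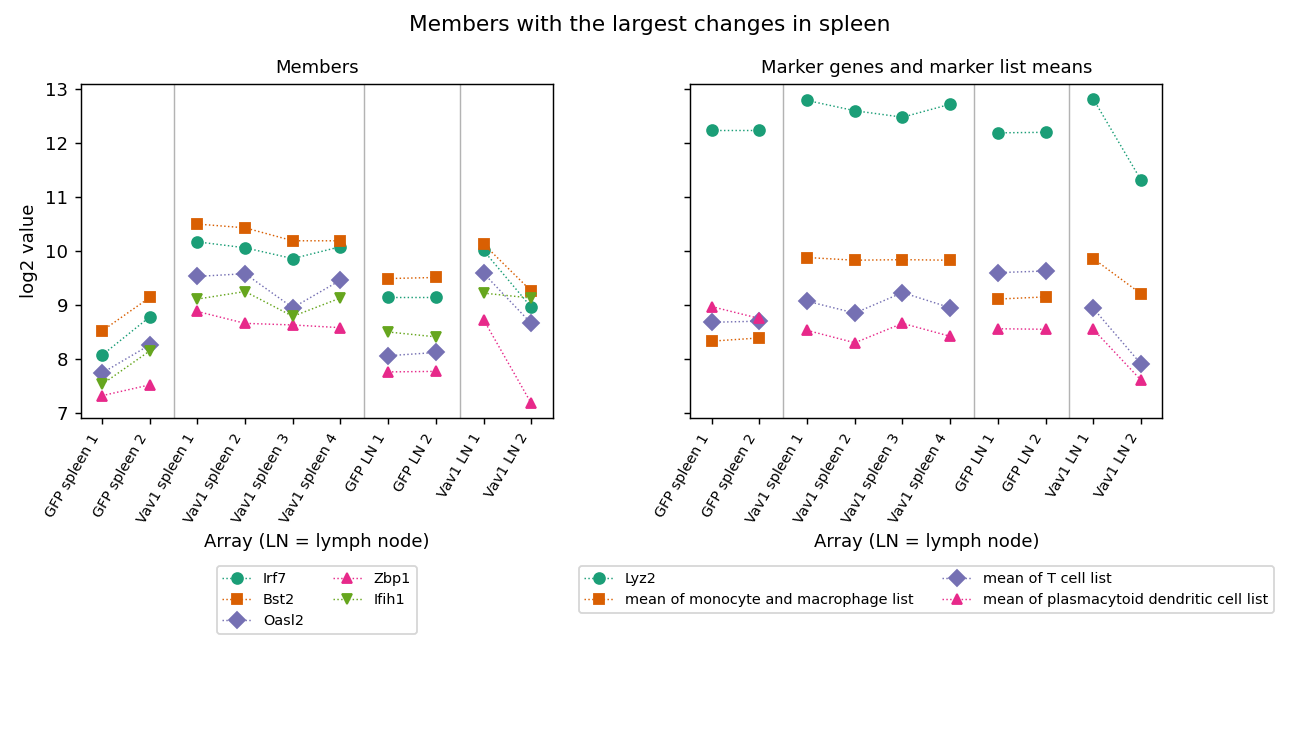
Log2 values by array of the members with the largest spleen changes besides Isg15 (left) and of Lyz2 and the means of 3 marker lists (right), with dotted lines joining arrays of a group only to guide the eye. Irf7 falls from 10.01 to 8.96 and Zbp1 from 8.73 to 7.18 between the oncogenic Vav1 lymph node arrays, where the monocyte and macrophage mean goes from 9.86 to 9.21, while Ifih1 stays at 9.22 and 9.13.

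Xaf1, which promotes cell death, was 8.49 and 9.11 against 9.70, 9.53, 9.89 and 9.51 in spleen (0.86, SE 0.22, adjusted p = 0.018), and 9.12 and 9.36 against 9.70 and 8.99 in lymph node (0.10, adjusted p = 0.83). Without GFP spleen replicate 1 the spleen change was 0.55 (adjusted p = 0.21). Parp14, an ADP-ribosyltransferase, was 8.10 and 8.08 against 8.55 to 8.72 in spleen (0.53, SE 0.15, adjusted p = 0.025), lost without either GFP spleen array or oncogenic Vav1 spleen replicate 1 or 4 (adjusted p from 0.056 to 0.12). Its relative Parp9 (7.99 and 8.10 against 8.33 to 8.57) passed over both tissues (0.42, SE 0.11, adjusted p = 0.013), but not without GFP spleen replicate 1 (0.39, adjusted p = 0.085). Trim30a (8.84 to 10.12 over all arrays) and Ifi35 (8.48 to 8.99), which were tested in every comparison, passed in none.

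Rtp4, a chaperone of cell surface receptors that also restricts some viruses, was the only member whose construct effect differed between the tissues by the test of that difference. It was 6.14 and 6.72 in the GFP spleen and 7.14, 7.06, 7.17 and 6.79 in the oncogenic Vav1 spleen, then 7.22 and 7.40 in the GFP lymph node and 6.74 and 6.91 in the oncogenic Vav1 lymph node. The oncogenic Vav1 arrays lay above the GFP arrays in spleen and below them in lymph node. The spleen change was 0.61 (SE 0.18, adjusted p = 0.031) and the lymph node change -0.48 (SE 0.21, adjusted p = 0.14). Their difference was -1.06 (SE 0.28, adjusted p = 0.045). Of the 31 tested members 1 passed this test, where 8.04% of all genes did, and 8 had an unadjusted p under 0.05. The Rtp4 difference was lost without GFP spleen replicate 1 (-0.79, adjusted p = 0.14), either GFP lymph node array, or oncogenic Vav1 spleen replicates 1 or 3 (adjusted p up to 0.15), and its spleen call was also lost without GFP spleen replicate 1 or oncogenic Vav1 spleen replicates 1, 2 or 3 (adjusted p from 0.063 to 0.31). Bst2 (-1.29, SE 0.38, adjusted p = 0.064) and Irf7 (-1.28, SE 0.42, adjusted p = 0.094) had larger differences that missed the threshold. With oncogenic Vav1 lymph node replicate 1 left out, 15 members passed (6 up, 9 down).

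Between the tissues, 4 members passed in the GFP arrays. In them, Rtp4 (0.86, SE 0.21, adjusted p = 0.021), Usp18 (0.71, SE 0.15, adjusted p = 0.0086) and Ifit1 (0.56, SE 0.17, adjusted p = 0.044) were higher in lymph node than in spleen and Oas2 (-0.77, SE 0.20, adjusted p = 0.024) was lower. That is 3 members up and 1 down, where 11.6% of all genes were higher and 4.41% lower. Without GFP lymph node replicate 1 none passed (4 at an unadjusted p under 0.05), without replicate 2, 1 did, without GFP spleen replicate 1, 1 did, and without either oncogenic Vav1 lymph node array 11 did. In the oncogenic Vav1 arrays no member passed by limma (5 at an unadjusted p under 0.05), and 0.0373% of all genes did, but 18 passed without oncogenic Vav1 lymph node replicate 1 (5 up, 13 down). Over both constructs no member passed either (3 at an unadjusted p under 0.05, and 4 passed without oncogenic Vav1 lymph node replicate 1), where 0.164% of all genes did. These counts are no test of the difference between the constructs, which is the one given for Rtp4.

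Mice that gave both tissues gave the same comparison within an animal. In CTL2, lymph node minus spleen ran from -1.20 (Rsad2) to 1.25 (Rtp4), and 17 of 31 members were higher in lymph node (median 0.06), as were 51.8% of all genes. In ONCO2 the range was -1.64 (Rsad2) to 0.17 with 13 higher (median -0.06), against 53.9% of all genes. In ONCO3 it was -1.45 (Zbp1) to 2.93 (Rsad2), again with 13 higher (median -0.26), against 46.5% of all genes. Rsad2 thus differed by over 1 log2 unit between the tissues of each of the 3 animals, downwards in 2 and upwards in 1.

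The GFP spleens differed from each other in one direction. Replicate 2 was above replicate 1 in 28 of 31 members, with a median of 0.42 and the widest gap for Isg15 (1.36), while 54.7% of all genes were higher there, with a median of 0.03. The GFP lymph nodes were closer, with replicate 2 higher in 18 members and a median of 0.04. The mean over the tested members was 7.78 and 8.22 in the GFP spleen, 8.58, 8.66, 8.48 and 8.45 in the oncogenic Vav1 spleen, 8.00 and 7.99 in the GFP lymph node and 8.48 and 8.42 in the oncogenic Vav1 lymph node.

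Upstream of the members are genes that sense nucleic acid and make interferon. Of 17 tested genes on that list of 20, 2 rose and 1 fell in spleen, where 17.1% of all genes rose and 9.77% fell. None passed in lymph node by limma (4 at an unadjusted p under 0.05), where 7.87% and 10.8% did. The medians were -0.02 and 0.16. The adaptor Myd88 of the Toll-like receptors rose by 0.92 (SE 0.12, adjusted p = 0.00092) in spleen, the DNA sensor Cgas by 0.93 (SE 0.21, adjusted p = 0.0099), and the transcription factor Irf5 fell by 0.55 (SE 0.17, adjusted p = 0.04). Interferon transcripts themselves, named here after their values were seen, were low. Ifnb1 lay between 5.17 and 5.83 over the 10 arrays and Ifna1 between 5.63 and 6.27, with no call in either tissue, and Ifna4, Ifnk and Ifne, below the 40th percentile on all 10 arrays, did not pass the filter.

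The interferon gamma gene was the exception among ligands. Ifng was 5.33 and 5.43 in the GFP spleen, 8.82, 8.65, 8.44 and 8.80 in the oncogenic Vav1 spleen, 5.87 and 5.24 in the GFP lymph node and 8.85 and 6.49 in the oncogenic Vav1 lymph node. It rose by 3.30 (SE 0.48, adjusted p = 0.0014) in spleen and by 2.11 (SE 0.56, adjusted p = 0.024) in lymph node. The GFP values are near background in both tissues, so both sizes depend on the background level. Of the GFP arrays, only lymph node replicate 1 lay above its 40th percentile (5.70). Ifng thus passed the filter through the oncogenic Vav1 arrays, and a difference was partly built into its entry. Of 17 tested genes for receptors and signalling, 5 rose in spleen, where 17.1% of all genes did. These were Ifng, the receptor chains Ifnlr1 (1.56, SE 0.34, adjusted p = 0.0079) and Ifnar2 (0.46, SE 0.11, adjusted p = 0.013) and the feedback inhibitors Socs3 (1.08, SE 0.22, adjusted p = 0.0059) and Socs1 (1.34, SE 0.36, adjusted p = 0.022). Socs1 was named after its values were seen. In lymph node Ifng alone rose and Jak1 alone fell, by 0.66 (SE 0.15, adjusted p = 0.012), where 7.87% of all genes rose and 10.8% fell. Irf1, a target of interferon gamma, was 9.74 and 9.90 against 10.60 to 10.74 in spleen (0.85, SE 0.34, adjusted p = 0.085) and 10.01 and 10.14 against 10.93 and 9.23 in lymph node.

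Of 42 tested genes on a list of other interferon-induced genes, 18 rose and 5 fell in spleen (median 0.28), where 17.1% of all genes rose and 9.77% fell. In lymph node 3 rose and 6 fell (median -0.11), where 7.87% of all genes rose and 10.8% fell. Apobec3, which mutates viral DNA, rose by 2.83 (SE 0.23, adjusted p = 8.9e-05) and 2.06 (SE 0.27, adjusted p = 0.00052), and Gm4951 by 3.58 (SE 0.32, adjusted p = 0.00014) and 2.35 (SE 0.37, adjusted p = 0.0016), in spleen and lymph node. Ifi27l2a fell by 1.54 (SE 0.21, adjusted p = 0.00079) and Epsti1 by 1.31 (SE 0.14, adjusted p = 0.00016) in lymph node, where the GFP arrays were the highest of the series for both. The construct effect differed between the tissues in 10 of the 42, each lower in lymph node. Of all genes, 8.04% differed in either direction. Among the 10 were Ifitm2 (-1.72, SE 0.27, adjusted p = 0.0033), a membrane protein that blocks viral entry, and Ifi27 (-1.61, SE 0.23, adjusted p = 0.0023).

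Of the 9 tested markers of plasmacytoid dendritic cells, none passed upwards in either tissue. In spleen 4 fell, where 9.77% of all genes did, and in lymph node 2 fell, where 10.8% did. The change was positive in 2 of the 9 in spleen (up to 1.04) and in 4 in lymph node (up to 0.53), none of them past the threshold. Siglech, a surface receptor used as a marker of these cells, was 8.39 and 8.32 in the GFP spleen and 6.60, 6.03, 7.19 and 6.92 in the oncogenic Vav1 spleen. It changed by -1.67 (SE 0.27, adjusted p = 0.002) in spleen and by -1.48 (SE 0.31, adjusted p = 0.0079) in lymph node. Ccr9, the homing receptor they share with some T cells, changed by -1.31 (SE 0.22, adjusted p = 0.0028) and -2.03 (SE 0.26, adjusted p = 0.0005). Vav1 itself was 9.63 and 9.83 against 9.99 to 10.30 in spleen (0.45, SE 0.21, adjusted p = 0.14), and the array cannot separate the construct from the host gene.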

How the data were processed

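The submitters' processing notes name RMA and R 3.6.3, and the deposited values are on a log2 scale. The annotation release and genome build behind the probe sets are not given in the sources used here. Values were used as deposited for 10 arrays, whose number limits the precision. Of 29129 probe sets, those with 1 symbol gave 19505 genes, and 13393 above the 40th percentile of their array on at least 2 arrays were tested. limma 3.58.1 in R 4.3.3 (statmod 1.5.0) fitted the 4 groups for the spleen and lymph node comparisons, and the animal as a random block for the comparisons that join tissues, with a variance trend and Benjamini-Hochberg adjustment over all tested genes. The threshold was an adjusted p of 0.05. Simulated data had independent noise on each array, with 100 of 13393 genes changed by 1 log2 unit and 100 by 2. Of those changed by 1, 76% in spleen and 61% in lymph node were recovered. Far more genes were called in the real data and some arrays share an animal, so recovery there can differ.

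The members and lists were chosen with earlier results of these data known. Any member was named, with Vav1, Ifng and Irf1, up to 4 genes of a pathway list and 2 of a marker list by smallest p in each comparison, and the most abundant markers. Alternatives in filter, normalization, model and arrays are given in the closing section. Leaving out both arrays of ONCO2 was added after seeing the data. Promoters came from RefSeq (GRCm38.p6), and the 32 members matched by Entrez ID.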

Additional observations from a re-analysis of the deposited data

Results flagged for a closer look

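Among the 4 oncogenic Vav1 spleens, 2 of 32 members had 1 array far from the other 3, a gap that chance gives in about 1 of 20 groups. Ifit3 was 8.57 in replicate 4 and 8.91 to 8.94 in the others. Usp18 was 8.70 in replicate 1 and 8.49 to 8.52 in the others. The construct effect on Rtp4 differed between the tissues by the interaction test of limma, at -1.06 (adjusted p = 0.045), with 0.61 in spleen and -0.48 in lymph node.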

How the results depend on the processing

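No called value changed sign under any alternative that was run, but the number of members called moved. In spleen (13), 20 passed with array weights, 0 with the negative control median as a covariate, 21 without the arrays of ONCO3, and 3 to 20 without 1 array. In lymph node (9), 2 passed with array weights, 0 with that tissue fitted alone, 16 without ONCO3, 14 without ONCO2, and 1 to 14 without 1 array. Over both tissues (21), 10 passed with a 1.5-fold minimum and 7 to 23 without 1 array. For lymph node minus spleen (0), 5 passed with array weights, 9 with the covariate, 3 without ONCO2 and 0 to 4 without 1 array. For the difference of the construct effects (1), 0 passed with no filter, with quantile normalization and with the covariate, 2 with a filter at the 60th percentile or with array weights, 3 with centred arrays or without the animal block, 7 without ONCO3, 15 without ONCO2 and 0 to 15 without 1 array. Between the GFP tissues (4), 9 passed with array weights or the covariate, 13 without ONCO3, 12 without ONCO2 and 0 to 11 without 1 array. Between the oncogenic Vav1 tissues (0), 1 passed with the covariate, 17 without ONCO2 and 0 to 18 without 1 array. Of the 9 called between the GFP tissues, 7 were up and 2 down with array weights. With the covariate 1 was up and 8 down, against 3 up and 1 down among the 4. The cause of these shifts was not tested.

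With the replicate number as a block, 9 members passed in spleen and 5 in lymph node. Same-numbered samples of the 2 constructs come from different animals, and their deviations correlated at 0.04 and 0.30 in spleen and -0.06 in lymph node. Whether they share more than a number was not tested. Groups of 2 arrays limit every comparison, and values near the 40th percentile (5.64 to 5.84) carry little signal over background.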
